A study of Homo sapiens with 6 samples.

Results

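The endosomal sorting complexes required for transport (ESCRT) and the genes of multivesicular body formation were examined in A549 cells, a human lung adenocarcinoma line, after knockdown of DDX17, a DEAD-box RNA helicase. The ESCRT genes were chosen by symbol, gene type and total reads: protein-coding genes of the 4 numbered complexes, of the VPS4 ATPase complex and of 3 accessory factors, with at least 60 reads summed over all libraries. This gave 33 genes of 29476 in the count table, and all 33 were among the 15615 genes tested. No protein-coding symbol match fell below the read limit; the lowest members were MVB12B with 667 reads and VPS37D with 1736, and the highest was SNF8 with 31668. CHMP1B2P and CHMP4BP1, with 31 and 144 reads, matched by symbol but are listed as pseudogenes and were left out. The study compared 3 libraries transfected with a nontargeting control siRNA (siCtrl) with 3 transfected with 1 siRNA against DDX17 (siDDX17). The sample labels call the control genotype a control plasmid, while the titles and the study's methods give an siRNA for both groups. The harvest is given as 48 h for the RT-qPCR samples, and for sequencing it is not given in the sources used here. All libraries came from the same cell line, and with 1 siRNA against DDX17 an effect of that siRNA and an effect of DDX17 loss cannot be told apart.

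The ESCRT pathway bends and cuts membrane away from the cytosol. On endosomes, the early complexes gather ubiquitinated receptors and ESCRT-III filaments pinch off the vesicles that fill multivesicular bodies, which then fuse with lysosomes or release their vesicles as exosomes. The same ESCRT-III and VPS4 machinery closes the bridge between dividing cells, reseals the nuclear envelope and repairs the plasma membrane. In epithelial tumour cells the pathway is best known for ending signalling from growth factor receptors by sending them for degradation.

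Library totals ran from 30658136 to 39182371 gene-assigned reads. DDX17 itself fell in the siDDX17 libraries, from 177, 184 and 206 TMM-scaled CPM (read counts relative to library size) in siCtrl 1, 2 and 3 to 32.1, 30.8 and 30.4, a log2 fold change of -2.60. Keratin genes of the epithelial marker list were abundant in every library and that list of 5 genes summed to 8100 to 8890 CPM in siCtrl and 6550 to 7070 in siDDX17, although EPCAM was low in both groups, at 0.738 to 1.08 CPM in siCtrl and 2.21 to 2.28 in siDDX17. By the same edgeR test as used for the ESCRT genes, EPCAM rose, with a log2 fold change of 1.35, while KRT7 (-0.64), KRT8 (-0.28) and KRT18 (-0.18) fell. The 4 lung lineage markers were at or near 0, with sums of 1.06 to 1.28 and 1.43 to 2.05 CPM. The 4 markers of leukocytes, endothelium and fibroblasts summed to 3.25 to 3.79 and 2.83 to 3.09 CPM, nearly all of it COL1A1, and PTPRC was at 0 in 4 of the 6 libraries. Mitochondrial transcripts took 12.9 to 14.1% of reads in siCtrl and 10.2 to 10.8% in siDDX17, and the TMM scaling factors were 0.9336 to 0.985 and 1.03 to 1.056. The control library siCtrl 1 stood apart from the other two, with a chi-square per gene of 19.2 and 23.7 against them, where siCtrl 2 and 3 differed by 5.53 and the siDDX17 pairs by 3.41 to 5.14. Fits without siCtrl 1 and with library size alone are given below. Beyond those fits, the part of these differences in the results was not tested.

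Most ESCRT transcripts were lower after DDX17 knockdown, a few were higher, and only CHMP6 and TSG101 fell by more than a factor of 2. Of the 33 genes, 20 fell and 5 rose by edgeR's quasi-likelihood test with a Benjamini-Hochberg adjusted p under 0.05 over all tested genes. The fallers were 60.6% of the members, where 24.3% of all tested genes fell, and the risers were 15.2%, where 24.5% rose. With an absolute log2 fold change over 1 added, 2 members fell, or 6.06%, and 0 rose, against 2.92% and 4.65% of all tested genes. In 21 members every siDDX17 library lay below every siCtrl library and in 5 every one lay above, while 27.7% and 28.8% of all tested genes separated in these ways. The median log2 fold change was -0.23 over the members and 0.0051 over all tested genes. These genes were taken up with earlier results of the same libraries known, so the counts are a description. Scaling by library size alone left 12 members that fell and 6 that rose, where 16% of all genes fell and 33.5% rose. It moved the median of all genes by over 0.1, to 0.13, and the members' median to -0.11. The members' median relative to all genes was then -0.235, against -0.234 in the TMM fit. A change of scaling factors moves every gene by nearly the same amount. This relative value was therefore bound to stay nearly the same and is no check of the scaling. On the deposited FPKM, which are not TMM-scaled, limma on log2(FPKM + 1) left 9 that fell and 6 that rose, where 6.56% of all genes in that fit fell and 14.9% rose. That fit had no expression filter and held 29242 genes, not the 15615 tested above. With only genes of at least 1 FPKM in 3 libraries, 12 of 32 members fell and 5 rose. Of the 11150 genes in that filtered fit, 19.0% fell and 36.7% rose. The members' median relative to all genes was -0.104 without the filter and -0.169 with it. In bulk samples of this kind, fewer cells of a type and less RNA per cell cannot be told apart.

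The sizes of most of these decreases were small. Beyond CHMP6 and TSG101, the fallers ran from CHMP4A at -0.73 to CHMP2B at -0.20 on the log2 scale. The 5 risers, CHMP3, VPS25, MVB12B, VPS4A and STAMBP, ran from 0.87 down to 0.30. All 5 risers and 8 of the fallers (CHMP6, TSG101, CHMP4A, CHMP1A, VTA1, CHMP5, IST1 and VPS37B) passed the same limit with each library left out in turn and under every other scaling, filter and model in which they were fitted. A test against the fold limit itself (glmTreat) is not counted among these fits. CHMP2B, CHMP4C, MVB12A, STAM, STAM2, VPS28 and VPS37C lost the call when at least 1 of the 6 libraries was left out.

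**Figure D1:**
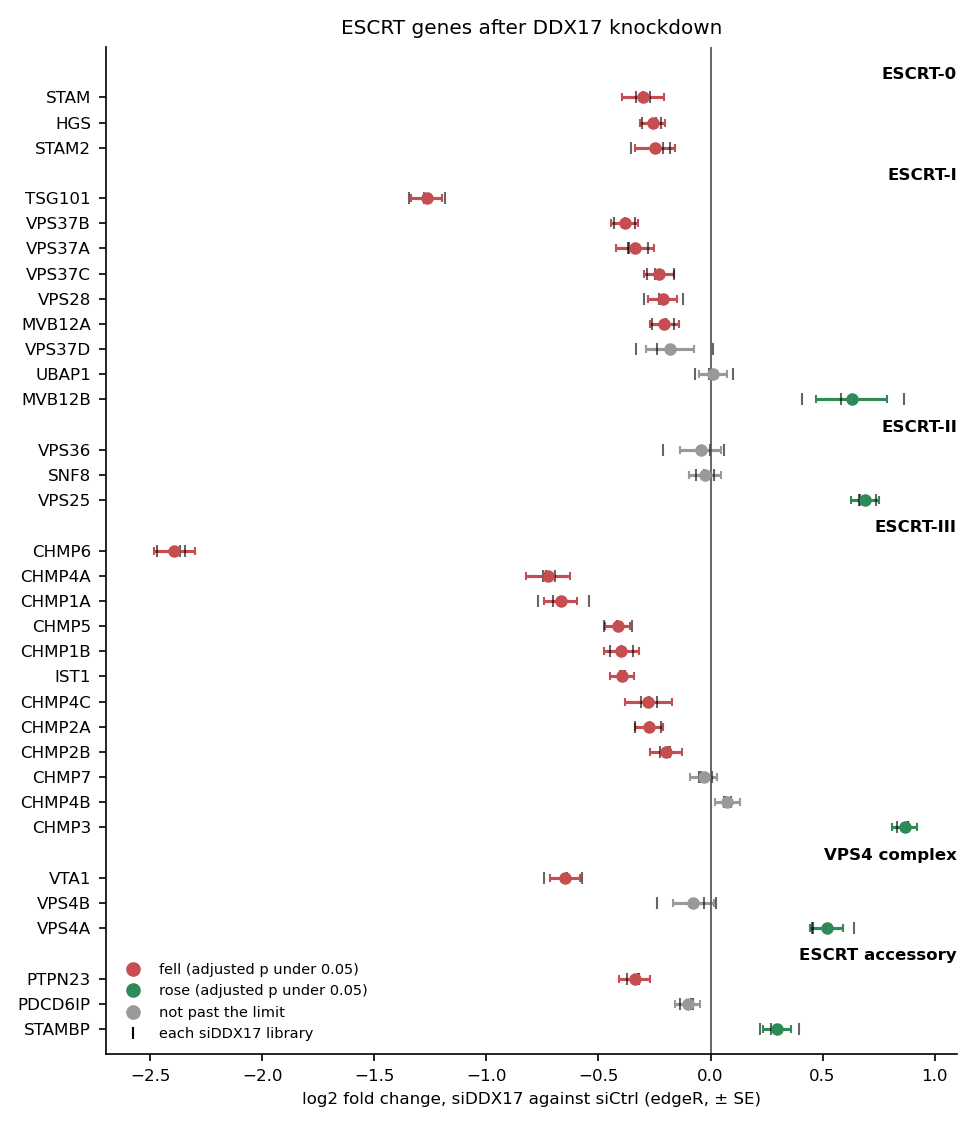
Log2 fold change of each of the 33 ESCRT genes, siDDX17 against siCtrl, by complex, with its standard error; short ticks are the 3 siDDX17 libraries against the siCtrl mean. CHMP6 at -2.39 and TSG101 at -1.27 stand apart to the left, and CHMP3, VPS25, MVB12B, VPS4A and STAMBP are the 5 genes to the right that passed the test.

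The 4 strongest fallers share a short motif with VPS37B, shown here in its place in each transcript. The 7-base sequence GTGCTGA occurs in the 3′ UTR of CHMP6, TSG101, CHMP4A, CHMP1A and VPS37B. It was taken from an earlier ranking of motifs on these same libraries, so its presence among fallers is no independent support, and it is not the seed match of any strand of the 2 siRNAs. Each window is read 5′ to 3′ on the transcript strand of GRCh38 with the match in capitals, and lies in the last exon of the canonical GENCODE 44 transcript. The CHMP6 window shown is at chr17:80999252-80999281 on the plus strand, in exon 8. The others are on the minus strand, at chr11:18480333-18480362 in exon 10 of TSG101, chr14:24209798-24209827 in exon 6 of CHMP4A, chr16:89645966-89645995 in exon 7 of CHMP1A and chr12:122865852-122865881 in exon 4 of VPS37B.
TSG101: gtaaactttttGTGCTGAatgttgggactg
CHMP6: cagtgcgcacgGTGCTGAgcagagctgcag
CHMP4A: ttaagtgccaaGTGCTGAgctaaaggagga
CHMP1A: gtcttgcctttGTGCTGAccccgcggggct
VPS37B: acgtgccatgtGTGCTGAaggcccagggcc

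The 5 genes that hold GTGCTGA are 15.2% of the members, close to the 12.9% of the 12986 tested genes with an annotated 3′ UTR of at least 30 bases. All 5 fell, with a median log2 fold change of -0.73, while the members without it had a median of -0.20. Across all genes the medians were -0.098 with the match and 0.0063 without it. The match stood in 34.4% of the 331 genes that passed both limits downward and in 11.4% of the 543 that passed both upward. Because the motif came from a ranking on these same libraries, these medians and shares are a description and no independent support. Across all genes the median 3′ UTR was 3058 bases long with the match and 1120 without it, whereas it was 980 bases in the 5 members with the match and 1648 in the others, with TSG101 and CHMP4A the shortest of the 5 at 235 and 262 bases.

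**Figure D2:**
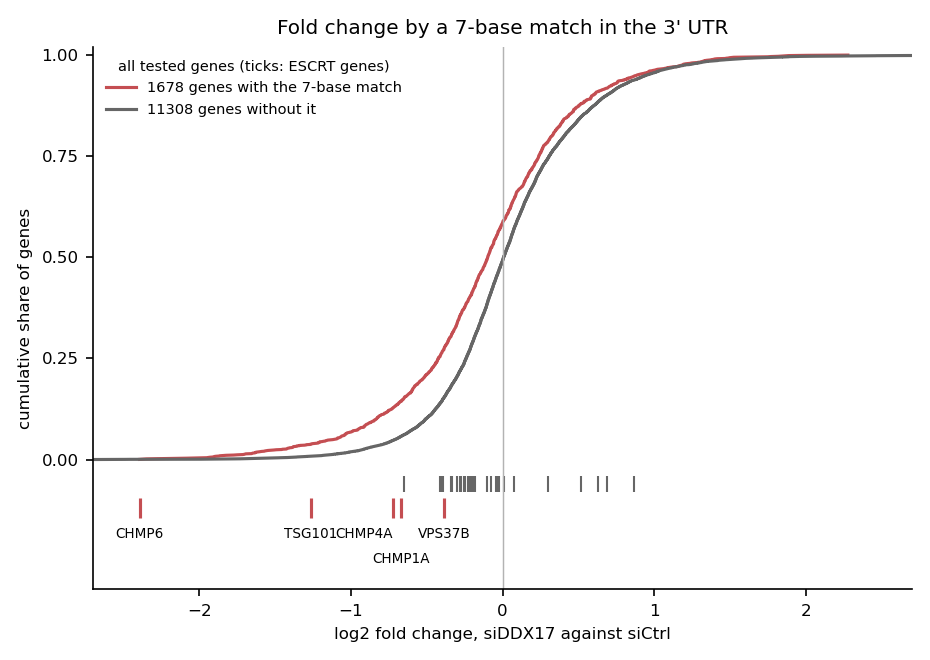
Cumulative share of tested genes by log2 fold change for the 1678 genes whose 3′ UTR holds GTGCTGA and for the genes without it; the horizontal axis leaves out the most extreme genes. Ticks below mark the ESCRT genes, and the 5 with the match, all left of 0, are named. The motif came from an earlier ranking on these same libraries, so the curves are a description.

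Matches to the siRNA seeds were also looked for on the transcript strand. TATTGCT pairs with bases 2 to 8 of the guide strand of the DDX17 siRNA and stood in the 3′ UTR of 14.5% of all genes and of 6 members. Of these, CHMP4C, STAM2 and VPS37C fell, STAMBP and VPS4A rose and VPS36 did not pass the test, with a median of -0.14 over the 6 and -0.26 over the other members. TCGGAGA, the seed match of the sense strand of the control siRNA, stood in 2.13% of genes and in 1 member, VPS37A, which fell. Over all genes the medians were 0.23 with TCGGAGA and -0.0087 without it, and -0.027 with TATTGCT and -6.19e-05 without it. TCGGAGA stood in 1.21% of the genes past both limits downward and in 8.84% of those past both upward. For TATTGCT these shares were 18.7% and 12.2%. No member held more than 1 of the 3 motifs. A match is a description of the letters in these windows, and whether any siRNA strand acted on these transcripts was not tested.

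ESCRT-0 was modestly lower throughout. HGS binds ubiquitinated cargo and phosphoinositide on the endosome, and STAM and STAM2 are its alternative partners. All 3 fell, with log2 fold changes of -0.26 for HGS, -0.30 for STAM and -0.25 for STAM2. STAM measured 26.6, 21.3 and 20.5 CPM in the siCtrl libraries against 18.9, 18.1 and 18.5 in siDDX17, each in the order of replicates 1, 2 and 3. The groups did not overlap, but siCtrl 1 was far above the other controls, and the change had an SE of 0.095 and an adjusted p = 0.0176 in edgeR's quasi-likelihood test. HGS went from 100.4 ± 3.95 to 84.0 ± 2.57 CPM (SD, n = 3) and kept its call with every library left out. STAM2 went from 18.3 ± 1.74 to 15.4 ± 0.956 CPM (SD, n = 3) and lost its call in 4 of the 6 fits that left out a library, where its log2 fold change ran from -0.28 to -0.18. With library size alone neither STAM (-0.18) nor STAM2 (-0.13) passed.

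TSG101 was the strongest faller of ESCRT-I. It is the subunit that binds ubiquitin and the short peptide motifs of adaptors and viral Gag proteins. TSG101 (ENSG00000074319.12, chr11:18468336-18526951, minus strand) measured 79.0, 81.2 and 71.4 CPM in siCtrl 1, 2 and 3. In siDDX17 1, 2 and 3 it measured 34.0, 31.8 and 30.4 CPM. All 3 siDDX17 libraries were far below the lowest control and close to each other. TSG101 fell by 58.4%, a log2 fold change of -1.27 with an SE of 0.068 and an adjusted p = 1.31e-08 in edgeR's quasi-likelihood test. LDHAL6A, on the opposite strand, overlaps the gene but was not among the tested genes. On the same strand TSG101 overlaps the noncoding gene ENSG00000256588 and the pseudogenes YWHABP2 and ENSG00000256361, also not among those tested.

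The other ESCRT-I subunits moved little apart from MVB12B. VPS28, which links ESCRT-I to ESCRT-II, fell with a log2 fold change of -0.21. The VPS37 proteins are interchangeable stalk subunits: VPS37B (-0.38), VPS37A (-0.34) and VPS37C (-0.23) fell, and VPS37D, at -0.18 with an adjusted p = 0.188 in edgeR's test, did not pass. VPS37B measured 40.8, 42.7 and 43.5 CPM in siCtrl against 31.4, 33.5 and 32.5 in siDDX17, so that the groups lay well apart. MVB12A, MVB12B and UBAP1 are alternative last subunits, and they did not move together. MVB12A fell (-0.21), UBAP1 was at 0.011 with an adjusted p = 0.896 in edgeR's test, and MVB12B rose. MVB12B measured 2.19, 2.59 and 2.51 CPM in siCtrl against 3.63, 4.42 and 3.22 in siDDX17. Every siDDX17 library was above every control, though siDDX17 2 was well above its replicates, and the log2 fold change was 0.63 with an SE of 0.16 and an adjusted p = 0.00476 in edgeR's test. MVB12B was the lowest of all members in both groups.

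ESCRT-II was the only complex with no member that fell, and it has 3 genes. VPS25, present in 2 copies in the complex, is the subunit that contacts CHMP6 and so starts the ESCRT-III filament. VPS25 (ENSG00000131475.6, chr17:42773449-42779599, plus strand) measured 95.9, 109.8 and 107.8 CPM in siCtrl 1, 2 and 3. In siDDX17 1, 2 and 3 it measured 165, 175 and 166 CPM. The lowest knockdown library was far above the highest control, and VPS25 rose 1.61-fold, with a log2 fold change of 0.69, an SE of 0.063 and an adjusted p = 1.29e-06 in edgeR's test. SNF8, the core subunit, and VPS36, which holds the ubiquitin- and lipid-binding domain, had log2 fold changes of -0.026 and -0.044, with adjusted p-values of 0.783 and 0.718 in edgeR's test. SNF8 measured 132 CPM in siCtrl 1 and 159 in both of the other controls, and without siCtrl 1 its value was -0.12 and passed the limit. Both genes also changed sign when scaled by library size alone, to 0.098 and 0.079, without passing the test.

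CHMP6, the ESCRT-III subunit that VPS25 contacts and the first to join the membrane, fell the most of all members. CHMP6 (ENSG00000176108.9, chr17:80991598-81009517, plus strand) measured 18.0, 17.8 and 17.3 CPM in siCtrl 1, 2 and 3. In siDDX17 1, 2 and 3 it measured 3.19, 3.48 and 3.43 CPM. Replicates were within a few percent of each other in the controls, and the groups were far apart. The gene fell by 81.0%, with a log2 fold change of -2.39, an SE of 0.091 and an adjusted p = 7.25e-10 in edgeR's quasi-likelihood test. CHMP6 and VPS25, whose proteins bind each other, thus moved in opposite directions. A tested gene not listed as protein-coding, ENSG00000280351, overlaps CHMP6 on the same strand. How reads were divided between them was not tested.

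CHMP3 rose while its partners of the filament cap fell. CHMP3 joins with CHMP2A or CHMP2B on the growing filament, and together they bring in the VPS4 ATPase. CHMP3 (ENSG00000115561.14, chr2:86503430-86563479, minus strand) measured 70.7, 75.8 and 72.8 CPM in siCtrl against 135, 130.3 and 135 in siDDX17. No siDDX17 library came near the control range. The rise was 1.82-fold, a log2 fold change of 0.87 with an SE of 0.055 and an adjusted p = 5.09e-08 in edgeR's test. The readthrough gene RNF103-CHMP3 covers CHMP3 on the same strand, so reads of the pair cannot be told apart. CHMP2A and CHMP2B fell, with log2 fold changes of -0.27 and -0.20.

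The CHMP4 proteins form the main ESCRT-III filament, and their 3 genes differed. CHMP4B, which had most of the family's length-scaled level in every library, went from 97.6 ± 4.10 to 102.8 ± 1.08 CPM (SD, n = 3) and did not pass the test, with a log2 fold change of 0.075. CHMP4A measured 10.3, 12.1 and 12.4 CPM in siCtrl against 6.90, 7.16 and 6.96 in siDDX17, and fell with a log2 fold change of -0.73. The gene shares its locus and strand with another coding gene, ENSG00000254692.1, which collected more reads, at 49.2 CPM in siCtrl and 29.6 in siDDX17, and had the same log2 fold change of -0.73. Which of the pair the reads came from cannot be told apart at the level of gene counts. CHMP4C, a subunit of the abscission checkpoint, fell with a log2 fold change of -0.28 and an adjusted p = 0.0416 in edgeR's test, and lost the call in 5 of the 6 fits that left out a library.

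The late and regulatory ESCRT-III subunits mostly fell. CHMP1A, CHMP1B and IST1 join late and bind the VPS4 ATPase, and CHMP5 binds the VPS4 cofactor VTA1. CHMP1A measured 68.5, 78.0 and 78.4 CPM in siCtrl against 43.9, 51.5 and 46.1 in siDDX17, a log2 fold change of -0.67 with an adjusted p = 7.18e-06 in edgeR's test. Its highest knockdown library was well below its lowest control. CHMP5, CHMP1B and IST1 fell with log2 fold changes of -0.41, -0.40 and -0.39. CHMP5 and IST1 were at 71.4 ± 0.472 and 142 ± 5.46 CPM (SD, n = 3) in siCtrl and at 53.6 ± 2.27 and 108 ± 0.724 CPM in siDDX17. CHMP7, which starts ESCRT-III assembly at the reforming nuclear envelope, was at -0.030 with an adjusted p = 0.712 in edgeR's test.

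In the VPS4 complex, 1 of the paired ATPases rose and the cofactor fell. VPS4A and VPS4B encode the hexameric ATPases that take ESCRT-III filaments apart, and VTA1 stabilises and stimulates them. VPS4A measured 35.7, 40.3 and 41.5 CPM in siCtrl against 53.6, 61.0 and 53.8 in siDDX17. The groups were clearly separate, with a log2 fold change of 0.52, an SE of 0.074 and an adjusted p = 6.78e-05 in edgeR's test. A second coding gene, ENSG00000260914.3, overlaps VPS4A on the same strand, went from 33.4 to 48.1 CPM and had a log2 fold change of 0.53, so these reads too cannot be told apart. COG8, which overlaps VPS4A on the opposite strand, was at -0.039. VPS4B was at -0.076, with an adjusted p = 0.52 in edgeR's test. VTA1 measured 36.6, 38.3 and 37.0 CPM in siCtrl against 24.0, 22.2 and 25.1 in siDDX17. Its groups did not overlap, and it fell by 36.3%, a log2 fold change of -0.65 with an adjusted p = 4.21e-06 in edgeR's test.

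Among the accessory genes, each took its own course. PDCD6IP encodes ALIX, which bridges ESCRT-I to ESCRT-III in budding, abscission and exosome release. PDCD6IP was lower in every siDDX17 library than in every control, at 93.2 ± 3.80 and 86.9 ± 1.91 CPM (SD, n = 3), but did not pass, with a log2 fold change of -0.10 and an adjusted p = 0.15 in edgeR's test, and its value was 0.021 with library size alone. PTPN23 encodes HD-PTP, an ALIX relative that passes receptors along the pathway, and measured 26.2, 24.7 and 25.6 CPM in siCtrl against 20.4, 19.7 and 20.5 in siDDX17. All knockdown values of PTPN23 were below the lowest control, and it fell with a log2 fold change of -0.34. STAMBP encodes AMSH, a deubiquitinase that removes ubiquitin from cargo, and measured 43.4, 41.8 and 42.9 CPM in siCtrl against 56.1, 49.8 and 51.5 in siDDX17. STAMBP was above the control range in all 3 knockdown libraries and rose with a log2 fold change of 0.30.

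**Figure D3:**
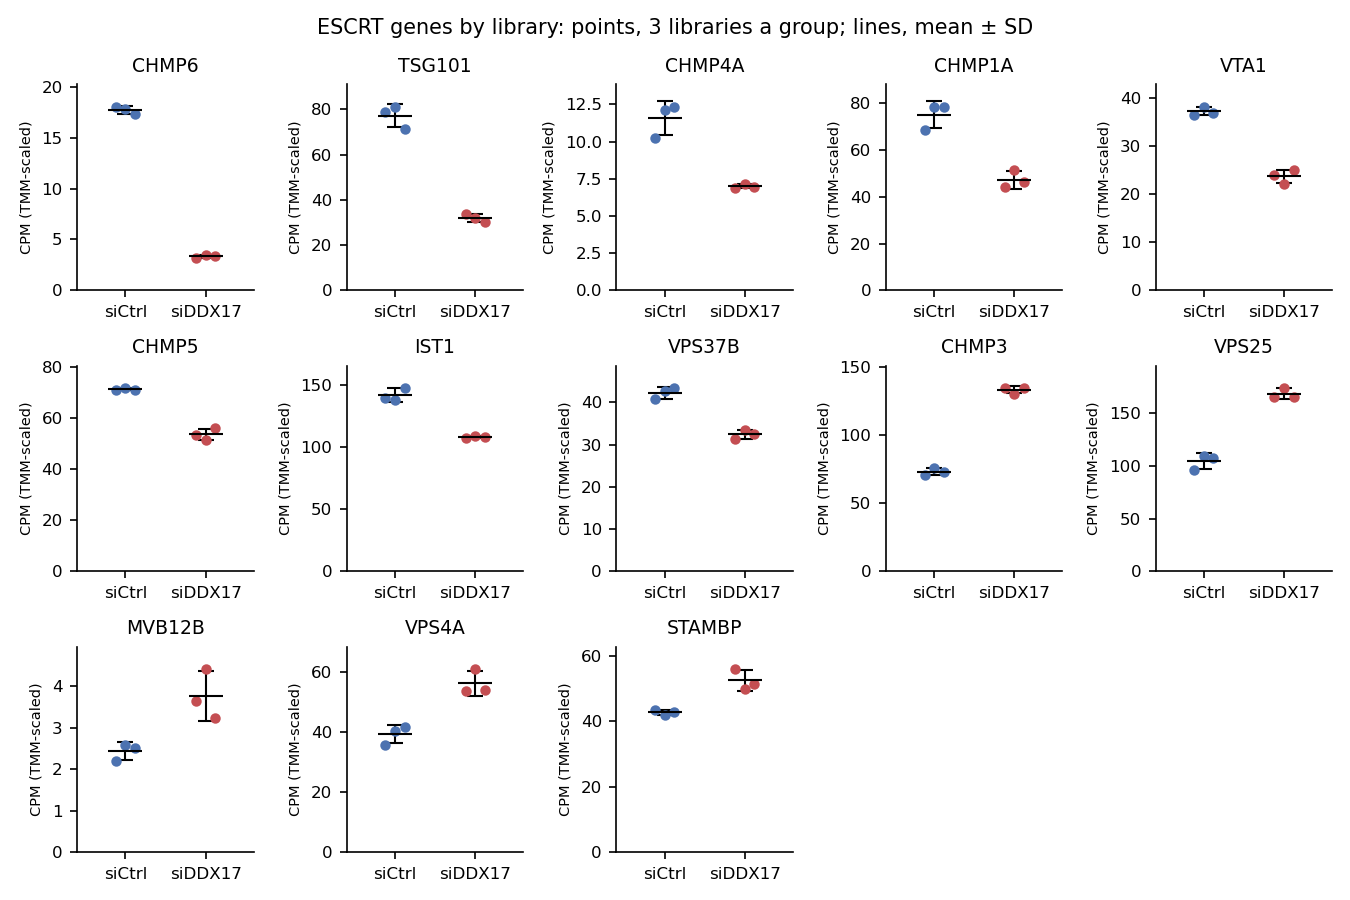
TMM-scaled CPM in each library for the 13 ESCRT genes whose call held in every alternative fit, the glmTreat test of the fold limit not counted. Points are libraries, lines the mean and SD of 3 libraries, and each axis starts at 0. In every panel the siCtrl and siDDX17 points are separate, from CHMP6 (17.7 to 3.37 CPM) to STAMBP (42.7 to 52.4 CPM).

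Levels between genes were compared as deposited FPKM, fragment counts relative to transcript length and library size. VPS25, CHMP2A, SNF8, CHMP4B and VPS28 were the 5 highest ESCRT genes in siCtrl, at 86.9 ± 4.63, 80.6 ± 3.37, 59.1 ± 5.09, 54.3 ± 1.05 and 46.4 ± 2.52 FPKM (SD, n = 3), and kept this order in siDDX17. The first pair and SNF8 and CHMP4B differed by less than the sum of their SDs in siCtrl. In siDDX17, VPS25 reached 153 ± 3.24 FPKM, well clear of CHMP2A at 72.9 ± 2.10. CHMP6 went from 9.75 ± 0.349 to 2.03 ± 0.0929 FPKM and from rank 19 to rank 32, leaving only MVB12B (0.327 to 0.557 FPKM) below it. TSG101 went from 26.1 ± 1.70 to 11.9 ± 0.637 FPKM and from rank 9 to rank 18. CHMP3 went from 20.1 ± 0.257 to 40.0 ± 1.20 FPKM and from rank 12 to rank 6.

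**Figure D4:**
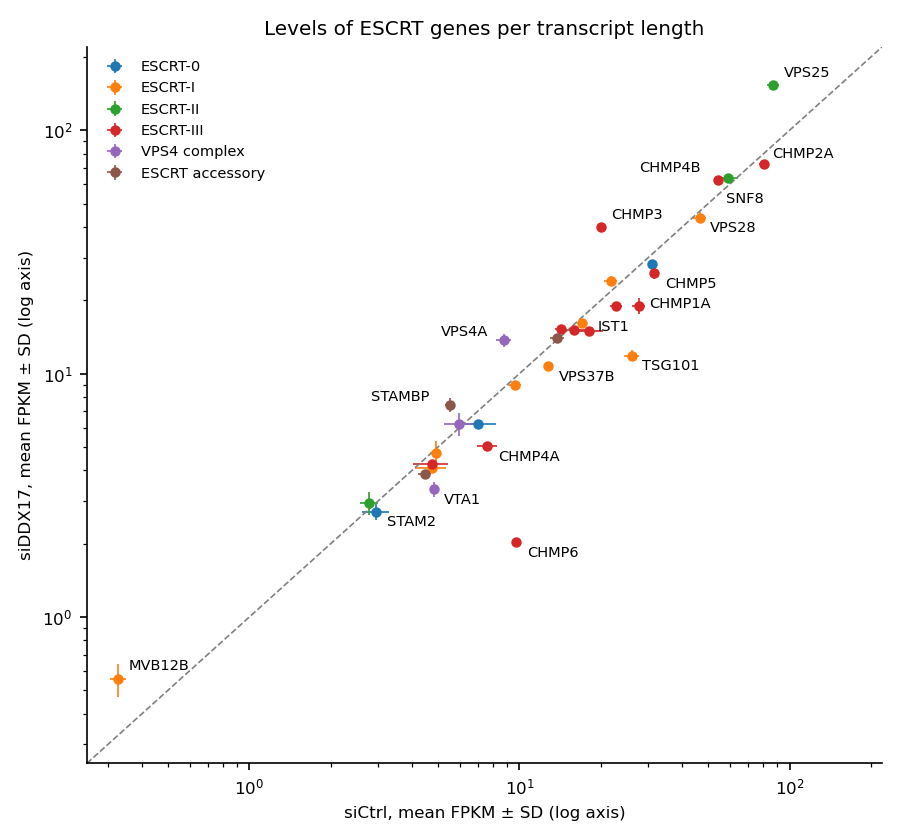
Mean FPKM of each ESCRT gene in siCtrl (horizontal, log axis) and siDDX17 (vertical, log axis), 3 libraries a group, with SD bars and colours by complex; the dashed line marks equal levels. CHMP6 and TSG101 lie far below the line and VPS25, CHMP3 and VPS4A above it.

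Summed over a complex, the FPKM hid most of these shifts. The sum over all 33 genes was 684 ± 4.19 in siCtrl and 727 ± 6.98 in siDDX17 (SD, n = 3), a log2 ratio of 0.087 that turned to -0.036 when each library was divided by its TMM factor. ESCRT-I went from 144 ± 4.92 to 125 ± 3.80 FPKM and ESCRT-0 from 40.9 ± 1.07 to 37.2 ± 0.768, and both were lower on either scale. ESCRT-II went from 149 ± 9.54 to 219.8 ± 3.77 FPKM and was higher on either scale. Nearly all of this increase was VPS25, from 86.9 to 153 FPKM, while SNF8 went from 59.1 to 63.5. ESCRT-III went from 307 ± 1.85 to 296 ± 1.25 FPKM, a log2 ratio of -0.054, or -0.18 with TMM factors. The VPS4 complex went from 19.6 ± 0.422 to 23.3 ± 0.362 FPKM, higher on either scale, and the accessory genes from 23.8 ± 1.30 to 25.3 ± 0.994, higher as deposited and lower, at -0.031, with TMM factors.

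Paralogs that can take each other's place were compared by their share of the family's FPKM in each library, in 7 tests. VPS4A made up 54.4, 61.8 and 61.9% of VPS4 in siCtrl and 67.1, 72.9 and 66.4% in siDDX17. CHMP4A made up 10.5, 11.6 and 12.2% of CHMP4 in siCtrl and 6.84, 7.16 and 7.03% in siDDX17. MVB12A made up 98.2, 98.1 and 98.1% of MVB12 in siCtrl and 96.9, 96.1 and 97.0% in siDDX17. In these 3 families the groups did not overlap and the exact two-sided permutation test gave p = 0.1 (adjusted 0.233), the smallest that 3 against 3 libraries allow. CHMP1A went from 60.6 ± 4.50% to 56.0 ± 1.97% of CHMP1 (SD, n = 3; exact permutation p = 0.2, adjusted 0.35). The shares of CHMP2A, STAM and VPS37A differed by -0.697, -0.606 and -0.35 percentage points (exact permutation p = 0.6, 0.5 and 0.8, adjusted 0.7, 0.7 and 0.8), and those of CHMP2A and VPS37A changed direction when 1 library was left out. For VPS4A and CHMP4A, the overlapping genes named above bear on the share. Each test took the share of the paralog named here, and VPS37C was not among them. VPS37C made up 31.1, 29.8 and 29.1% of VPS37 in siCtrl and 31.4, 31.5 and 31.5% in siDDX17, without overlap.

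**Figure D5:**
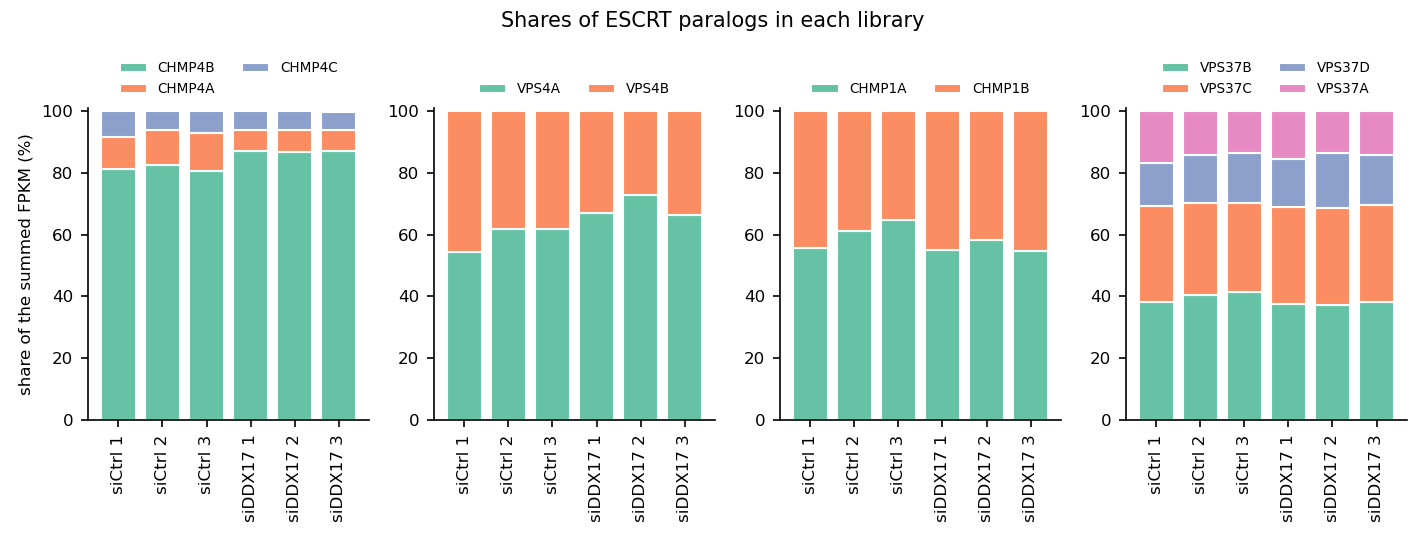
Share of each paralog in the summed FPKM of its family, in percent, for each of the 6 libraries, in the CHMP4, VPS4, CHMP1 and VPS37 families. VPS4A takes 66.4 to 72.9% in siDDX17 and 54.4 to 61.9% in siCtrl, and CHMP4A about 7% and 10.5 to 12.2%.

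Genes that act beside ESCRT on the endosome moved both ways. Over 6 further lists, 9 genes rose and 22 fell of 57 tested, with a median log2 fold change of -0.13; the shares over all tested genes, against which these lists and each list below are to be read, were 24.5% and 24.3%. Of 9 ubiquitin ligases and deubiquitinases, 3 rose and 3 fell; STAMBPL1, the paralog of STAMBP, fell (-0.97) while STAMBP rose, and of the ligases NEDD4L (0.66) and WWP1 (0.35) rose and CBL (-0.53) fell. Of 19 adaptors and partners, 18 were tested (UBAP1L was too low), 2 rose and 7 fell, and LEMD2, the nuclear envelope partner of CHMP7, was the only one past both limits. LEMD2 measured 69.4, 67.8 and 65.7 CPM in siCtrl against 33.6, 32.5 and 33.4 in siDDX17, a log2 fold change of -1.03, while CHMP7 itself stayed at -0.030. Of 9 exosome and late endosome genes, 0 rose and 5 fell, among them the tetraspanin CD9 (-0.85), RAB27A (-0.48), which docks multivesicular bodies at the plasma membrane, RAB7A (-0.28), which takes them to the lysosome, and the ALIX-binding syntenin gene SDCBP (-0.21).

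Of the 8 HOPS and CORVET tethering genes, which prepare endosomes for fusion, 2 rose and 3 fell, with VPS33A at -0.92, TGFBRAP1 at -0.35, VPS16 at -0.24 and VPS8 at 0.52. The retromer list, whose proteins retrieve cargo before ESCRT takes it, had 1 gene that rose, VPS26B (0.37), and 2 that fell, SNX2 (-0.29) and SNX5 (-0.19), among 8. Of 5 genes of endosomal phosphoinositide metabolism, PIKFYVE (-0.54) and FIG4 (-0.36) fell, VAC14 (0.29) rose and the other 2 did not pass. LEMD2 was thus the only gene of these lists to pass both limits, as CHMP6 and TSG101 were among the ESCRT genes.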

How the data were processed

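RNA was sequenced as polyA-selected, stranded libraries from 3 siCtrl and 3 siDDX17 samples, described as biological replicates in the study's methods; the labels do not say whether they were separate cultures, so p-values measure the spread between these samples. The authors aligned reads with TopHat2 to GRCh38, allowing at most 4 mismatches and keeping unique alignments, and deposited 2 tables, read counts per gene for 29476 genes and FPKM for 29242. The authors' use of edgeR for differential expression is given; the counting program, annotation and use of strand are not given in the sources used here.

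The 33 members and all lists were chosen with earlier results of these data known. Groups and replicate numbers came from the sample titles. Counts were tested with edgeR 4.0.16 in R 4.3.3 (TMM, filterByExpr, glmQLFit and glmQLFTest, group as the only term), with Benjamini-Hochberg adjustment over 15615 genes, and the fit was checked on simulated counts. CPM were computed from the deposited counts and TMM-scaled library sizes. Limits were an adjusted p under 0.05 and, beside it, an absolute log2 fold change over 1. Alternatives used DESeq2 1.42.0, other scalings and filters, a replicate block, limma 3.58.1 on log2 of the deposited FPKM plus 1 or 0.1, and each library left out. Paralog shares were tested by exact permutation with scipy 1.17.1. Gene positions and 3′ UTRs are those of GENCODE 44 on GRCh38, to which 98.9% of tested genes matched by identifier; 3′ UTRs came from the canonical transcript and were searched on the transcript strand only. Every member is named with its fold change; values per library are given for members past both limits, for the largest increase and decrease in each complex among those past the adjusted limit, and, chosen after their values were seen, for CHMP4A, CHMP1A and VPS37B because they hold the motif shown. Of each other list at most 4 genes are named, those past both limits or else those with the smallest adjusted p. Of the deposited columns, 0 held samples outside these groups. One further sequence window is not reported here.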

Additional observations from a re-analysis of the deposited data

How the results depend on the processing

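The study's own limits were an unadjusted p under 0.01 and a fold over 1.5. The share of all genes at these limits was not computed. Against 20 in the TMM fit, the count of members that fell was 5, with 3 that rose, at those limits. It was 12 with library size alone, 9 and 8 with limma on log2(FPKM + 1) and log2(FPKM + 0.1), and 12 with limma on genes of at least 1 FPKM in 3 libraries, a fit that leaves out MVB12B; of all genes, 16%, 6.56%, 6.53% and 19.0% fell in these fits. The limma fits change the measure, the model and the scaling together. Those without the filter held 29242 genes, so their shares of all genes include many that the TMM fit left out. Leaving out 1 library gave 13 to 19, with 13 without siDDX17 3, where fewer samples enter the test, and 18 without siCtrl 1. In each of those fits 5 rose. Of all genes, 19.6 to 27.0% fell and 20.1 to 26.4% rose in them. The 2 genes past both limits were 2 in every fit, including a glmTreat test of the fold limit itself, and 0 rose past both. The members' median was -0.198 with upper quartile scaling, -0.108 with library size alone, -0.0899, -0.099 and -0.0901 in the 3 limma fits, and -0.265 to -0.204 with 1 library left out. The median over all genes in the 3 limma fits was 0.0138, 0.0724 and 0.0793, and the members' median relative to it was -0.104, -0.171 and -0.169.

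With the replicate number as a block, 5 members rose and 19 fell, with a median of -0.23. Of all genes, 24.0% rose and 23.9% fell in that fit. Among the members only CHMP4C lost its call. Same-numbered libraries had deviations that correlated at 0.00698, 0.0407 and -0.0564, and the other pairs at -0.0624 to 0.0566. No shared effect of the number was seen. With 3 libraries a group this cannot show whether same-numbered samples were prepared together.

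6 members that did not pass the TMM fit changed sign. With library size alone the log2 fold changes were 0.0939 for CHMP7, 0.0209 for PDCD6IP, 0.0982 for SNF8, 0.0785 for VPS36 and 0.0455 for VPS4B, and with upper quartile scaling 0.000805 for CHMP7 and 0.00373 for SNF8. With limma on log2(FPKM + 1), with or without the filter, they were 0.0942 for CHMP7, 0.0262 for PDCD6IP, 0.105 for SNF8, 0.0593 for VPS36 and 0.0452 for VPS4B, and with the smaller pseudocount 0.1, 0.028, 0.107, 0.0767 and 0.052. With 1 library left out, the log2 fold changes ran from -0.0881 to 0.00368 for CHMP7, -0.12 to 0.0145 for SNF8 (also crossing at 0.00825), -0.106 to 0.0303 for VPS36, -0.131 to 0.00105 for VPS4B and -0.0372 to 0.0491 for UBAP1, which also went below 0 at -0.00624 and -0.0126. CHMP4B passed as higher with library size alone and in the 3 limma fits, at 0.199 to 0.204. With 1 library left out, the share difference ran from -1.935 to 0.1093 percentage points for CHMP2A and from -0.9721 to 0.5641, with a second reversal at 0.1193, for VPS37A; these cannot reach p under 0.05. With TMM-scaled counts no share changed direction, and the MVB12A difference was -3.488 against -1.448 percentage points. The CHMP1A difference ran from -7.015 to -2.555 with 1 library left out, and the STAM difference was -0.01613 without siCtrl 1.

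Errors were larger at low counts in some members: VPS37D, with 1736 reads and an SE of 0.11, did not pass at -0.18, while CHMP2B, with an SE of 0.072, passed at -0.20. Counts of CHMP3, CHMP4A and VPS4A cannot be told apart from reads of the second coding gene on the same strand. IST1, VPS36 and CHMP1B also overlap a coding gene on the same strand: ATXN1L, THSD1 and GNAL. These were counted at 18.1, 2.87 and 2.91 CPM in siCtrl, with log2 fold changes of -0.10, 0.0011 and 0.079. How reads were divided at these loci was not tested.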
